A study of Mus musculus with 7 samples.

Results

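The RBM genes are a set of genes named for a shared feature of their proteins, the RNA recognition motif, by which a protein grips single-stranded RNA. They were followed here together with Cirbp, the closest cold-inducible relative of Rbm3, in light zone germinal centre B cells of the mouse. Members were all protein-coding genes of the GENCODE vM21 annotation whose symbol starts with Rbm, plus Cirbp, with at least 10 estimated reads in 3 or more of the 7 libraries. Of 48 such genes 39 qualified, out of 48795 gene identifiers in the count table and 9821 protein-coding genes that meet the same minimum.

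Both groups of mice were immunised intravenously with sheep red blood cells, and light zone germinal centre B cells were sorted from the spleen at day 10 for polyA RNA sequencing. The 3 libraries labelled MIZ1KO carry sample names with MizFF, the 4 labelled Control carry names with eYFP, and both names are used below as labels. MIZ1, the protein of Zbtb17, is a zinc finger transcription factor that activates its own targets and takes part in repression by MYC. The sources used here do not give the Cre driver, strain, age or number of animals per library. The p-values therefore reflect how far these libraries scatter, which may in part be technical. The single comparison asks which transcripts differ between MIZ1KO and Control cells.

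RNA recognition motif proteins act at many steps of an mRNA's life. Several RBM proteins belong to the spliceosome or steer the choice of splice sites, RBM8A is a core subunit of the exon junction complex, RBM15 and RBM15B guide the writer of the m6A mark, and RBM7 hands nuclear transcripts to the RNA exosome. RBM3 and CIRBP are small glycine-rich proteins whose synthesis rises when cells are cooled mildly, and RBM38 is a p53-induced regulator of mRNA stability and translation. In the light zone of a germinal centre, B cells are selected with help from T cells before they divide again in the dark zone.

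Zbtb17, the targeted gene, measured 5.16, 3.70 and 4.50 CPM (read counts scaled to library size) in MIZ1KO replicates 1 to 3 and 7.02 CPM in Control replicate 4, while Control replicates 1 to 3 lay between 3.148 and 3.422 CPM. These values overlap (log2 fold change 0.03 ± 0.46, adjusted p = 0.975, edgeR) and rest on 22 to 70 reads per library. Which part of the gene is deleted is not stated, so reads summed over the whole gene do not check the labels. Library totals ran from 6896673 to 9482453 estimated reads, and 46.4% to 56.1% of them lay in ribosomal RNA models. Pax5, a B cell transcription factor, Bcl6, the master regulator of germinal centre B cells, and all 8 light zone markers passed the filter on low counts. Cd79a, a chain of the B cell receptor complex, measured 658, 591 and 759 CPM in MIZ1KO and 452, 355, 307 and 358 CPM in Control, and it rose (log2 fold change 0.86 ± 0.22, adjusted p = 0.0333, edgeR). That call ended without MIZ1KO replicate 1 (0.129), MIZ1KO replicate 3 (0.116), Control replicate 2 (0.0999) and Control replicate 4 (0.0946). The summed level of 8 T cell markers was 43.1, 45.1 and 49.5 CPM in MIZ1KO and 33.1, 32.2, 25.9 and 32.1 CPM in Control, without overlap. Most of this sum was Lck, the only 1 of the 8 that passed the filter. Lck measured 40.4, 35.4 and 30.9 CPM in MIZ1KO and 32.7, 30.6, 24.7 and 30.4 CPM in Control. Its groups overlapped (log2 fold change 0.27 ± 0.22, adjusted p = 0.491, edgeR). In every MIZ1KO library more of the T cell sum lay outside Lck than in any Control library, and the most in MIZ1KO replicate 3. Myeloid markers summed to 5.91, 30.2 and 22.7 CPM in MIZ1KO and to between 8.92 and 12.8 CPM in Control. MIZ1KO replicates 2 and 3 thus lay above every Control library, and MIZ1KO replicate 1 below. Plasma cell markers summed to between 177 and 255 CPM in MIZ1KO and 205 and 377 CPM in Control. Erythroid and platelet markers summed to between 61.3 and 493 CPM in MIZ1KO and 117 and 426 CPM in Control. No gene of the T cell, myeloid, plasma cell or erythroid lists was at 0 in every library. The 8 dark zone markers summed to between 1783 and 2453 CPM in MIZ1KO and 1248 and 1813 CPM in Control. The proliferation gene Mki67 made up most of this sum, at means of 1797 CPM in MIZ1KO and 1145 CPM in Control. Its libraries overlapped between the groups (log2 fold change 0.65 ± 0.28, adjusted p = 0.158, edgeR). Of the 8 dark zone markers 6 lay above 0 and 2 below. The 8 light zone markers summed to between 712 and 812 CPM in MIZ1KO and 675 and 954 CPM in Control. Of them 4 lay above 0 and 4 below. Models of the class TEC, single-exon transcripts that await experimental evidence, took 0.544% to 0.923% of the reads outside ribosomal RNA in MIZ1KO and 1.02% to 2.58% in Control, without overlap (two-sided exact permutation p = 0.0571, adjusted p = 0.0762 over 4 library quantities, smallest possible p = 0.0286). At the same p-values the share of the nuclear RNA Malat1 did not overlap either, at 0.256% to 0.49% in MIZ1KO and 0.687% to 1.52% in Control, nor did that of protein-coding genes, at 93.8% to 94.9% and 89.2% to 93.4%. The part of Cd79a, the T cell, myeloid, plasma cell and erythroid markers, Malat1 and the protein-coding share in the results below was not tested. In these bulk libraries fewer cells of a type and less RNA per cell cannot be told apart.

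The promoters of 4 members are shown because they stand for the outcomes described below: Rbm4b and Rbm15 were lower in MIZ1KO, Rbm38 was higher, and Cirbp did not pass the test although Rbm3 did. Each is the 250 bases upstream of the RefSeq start in GRCm38.p6, read 5′ to 3′ on the gene's strand. Capitals mark GGGCGG, the core of the GC box bound by SP1, and CCAAT, the CCAAT box bound by NF-Y, on either strand, and these motifs can overlap each other.
Rbm4b (chr19:4756275-4756524, plus strand): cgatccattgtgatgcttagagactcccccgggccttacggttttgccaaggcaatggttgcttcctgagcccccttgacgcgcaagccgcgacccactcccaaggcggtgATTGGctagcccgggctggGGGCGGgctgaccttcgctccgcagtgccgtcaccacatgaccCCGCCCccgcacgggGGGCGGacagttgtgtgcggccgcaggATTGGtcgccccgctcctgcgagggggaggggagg
Rbm15 (chr3:107333290-107333539, minus strand): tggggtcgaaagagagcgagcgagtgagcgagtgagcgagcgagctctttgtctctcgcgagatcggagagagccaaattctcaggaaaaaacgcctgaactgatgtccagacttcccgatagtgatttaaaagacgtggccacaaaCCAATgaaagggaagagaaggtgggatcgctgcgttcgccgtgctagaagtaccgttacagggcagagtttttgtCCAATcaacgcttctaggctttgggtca
Rbm38 (chr2:173021652-173021901, plus strand): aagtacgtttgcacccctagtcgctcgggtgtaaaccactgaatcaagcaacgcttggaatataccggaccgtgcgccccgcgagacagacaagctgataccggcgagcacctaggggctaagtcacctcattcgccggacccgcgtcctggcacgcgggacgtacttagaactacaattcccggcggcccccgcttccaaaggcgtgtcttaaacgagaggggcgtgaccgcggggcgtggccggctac
Cirbp (chr10:80167589-80167838, plus strand, the first of its promoters): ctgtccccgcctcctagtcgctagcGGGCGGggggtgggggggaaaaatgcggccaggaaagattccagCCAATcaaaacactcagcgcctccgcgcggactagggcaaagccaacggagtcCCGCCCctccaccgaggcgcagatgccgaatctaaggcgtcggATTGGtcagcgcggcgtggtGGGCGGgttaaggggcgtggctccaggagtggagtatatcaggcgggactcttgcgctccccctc

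In the 300-base windows from 250 bases before to 50 bases after the start, 32 of the 39 members had an entry, with 41 promoters in all. GGGCGG was found in 46.3% of these promoters and in 35.7% of all 32851 RefSeq promoters of the table. CCAAT was found in 43.9% of them and 37.4% of all. CACGTG, the E-box that MYC binds with MAX, lay in 3 member promoters (Rbm15b, Rbm19 and Rbm43), or 7.32% against 7.15% of all. ATCGAT, searched as well, was in 0 of the 41 and in 0.925% of all. Rbm38 and Rbm25 had none of these motifs in their windows. Both windows, which start at 173021652 and 83635460, lie inside the genes as GENCODE bounds them, from 173020498 and 83631236. The stretches shown for Cirbp and Rbm15 also lie inside their genes. That of Cirbp begins at 80167589, and GENCODE starts the gene at 80165985. That of Rbm15, on the minus strand, begins at 107333539, and GENCODE starts the gene at 107333673. The sequence before these GENCODE starts was not searched. Rbm12b1, Rbm12b2, Rbm22, Rbm27, Rbm3, Rbm44 and Rbm8a had no entry.

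Of the 39 members, 38 passed the filter on low counts and were tested, and Rbm47 was not. Rbm47, which takes part in RNA editing, was just inside the minimum with 2 to 21 reads per library, between 0.4 and 1.07 CPM in MIZ1KO and between 0.262 and 2.76 CPM in Control. Just outside it, Rbm8a2 had at most 2.82 reads in a library. The other 8 genes below the minimum, among them the muscle and heart genes Rbm20 and Rbm24, the germ cell gene Rbm46 and the Y-linked Rbmy, were listed at 0 in every library, which allows up to between 0.30 and 0.483 CPM per library for 3 reads. At the other end of the range, 38 members had 10 or more reads in every library.

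Compared per kilobase of exon, Rbm3 was the most abundant member in both groups, at 164 ± 67.8 CPM per kb in Control (SD, n = 4) and 52.8 ± 8.15 CPM per kb in MIZ1KO (SD, n = 3). Rbm39, a splicing factor of the U2AF-related kind, was next in Control at 32.8 ± 4.12 CPM per kb, followed by Rbmxl1 at 29.6 ± 10.2, Rbm26 at 19.5 ± 4.50 and Rbm38 at 17.6 ± 3.16. The means of Rbm39 and Rbmxl1, and those of Rbm26 and Rbm38, lay within their spread of each other. In MIZ1KO the second place went to Rbm38 at 36.2 ± 3.38 CPM per kb, ahead of Rbmxl1 at 30.7 ± 8.53 and Rbm39 at 25.3 ± 2.54. The lead of Rbm3 over the next member was 4.998-fold in Control and 1.46-fold in MIZ1KO. Cirbp stood far lower, at 3.14 ± 0.839 CPM per kb in Control and 2.78 ± 0.703 in MIZ1KO. Exon length here joins the exons of all annotated isoforms, and 26 of the 39 members have an annotated transcript with a retained intron or one marked for nonsense-mediated decay, which the gene counts do not separate.

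**Figure D1:**
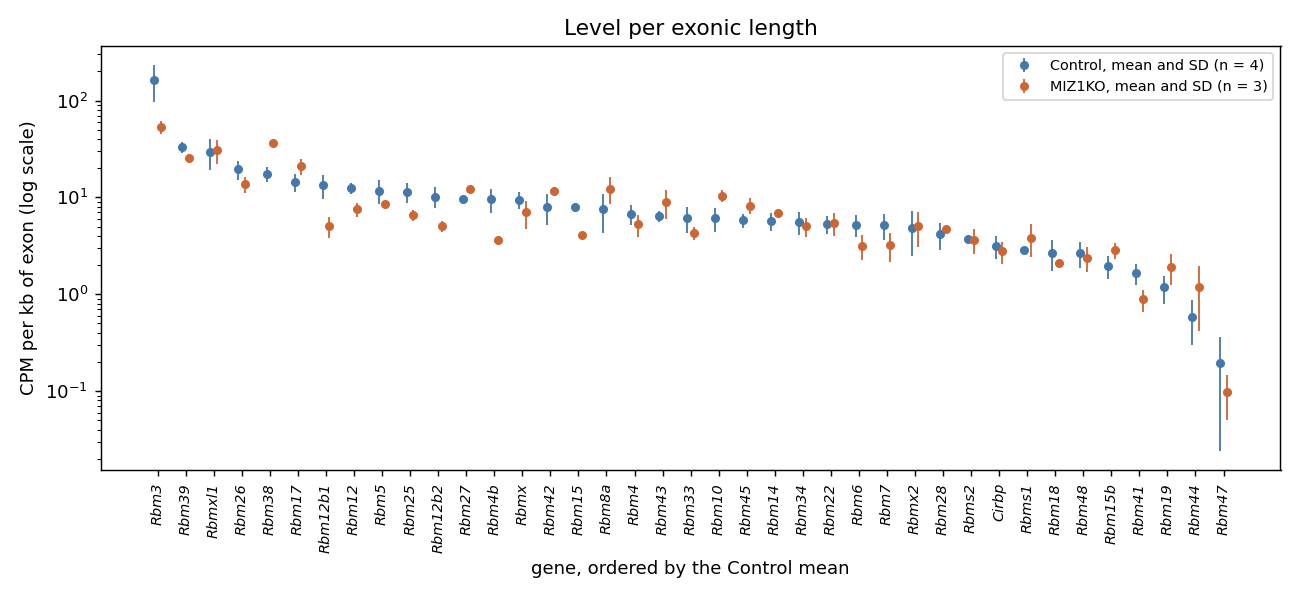
Level of each of the 39 members in CPM per kilobase of exon on a log scale, ordered by the Control mean, with the SD of 4 Control libraries (blue) and 3 MIZ1KO libraries (orange). Rbm3 leads in both groups, at 164 in Control and 52.8 in MIZ1KO, and Cirbp lies near 3 in both.

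In MIZ1KO 7 members fell and 1 rose among the 38 tested, at an adjusted p under 0.05 in edgeR's quasi-likelihood test with Benjamini-Hochberg adjustment over all 11618 genes. Rbm3, Rbm4b, Rbm25, Rbm15, Rbm12b1, Rbm12b2 and Rbm12 were lower and Rbm38 was higher. The lower calls are 18.4% of the tested members, where 2.06% of 9812 tested protein-coding genes and 4.05% of all genes were called lower. The 1 higher call is 2.63% of them, where 2.08% of protein-coding genes and 1.9% of all genes were called higher. In either direction the shares were 21.1% of members, 4.14% of protein-coding genes and 5.96% of all genes. The protein-coding calls were split into 204 higher and 202 lower, or 279 and 172 with ribosomal RNA genes left out before scaling. The median log2 fold change of the 38 members was -0.17, beside 0.03 over protein-coding genes and -0.03 over all genes, and 17 members lay above 0 and 21 below. At an unadjusted p under 0.05 were 16 of the 38 members, where 21.2% of protein-coding genes were.

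The number of calls among the members depended on single libraries. Without MIZ1KO replicate 1, 0 of 39 tested members passed in edgeR, with 14 at an unadjusted p under 0.05, and 39 genes of the whole table did. On the same 6 libraries DESeq2 called 5 members and limma-voom 0, a comparison chosen after the data were seen. In edgeR 3 members passed without Control replicate 4 (Rbm3, Rbm4b and Rbm38). Without MIZ1KO replicate 2, MIZ1KO replicate 3, Control replicate 2 or Control replicate 3 the same 5 genes passed each time: Rbm3, Rbm4b, Rbm15, Rbm12b1 and Rbm38. Without Control replicate 1 all 8 passed, together with Rbm6 (lower) and Rbm8a (higher).

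**Figure D2:**
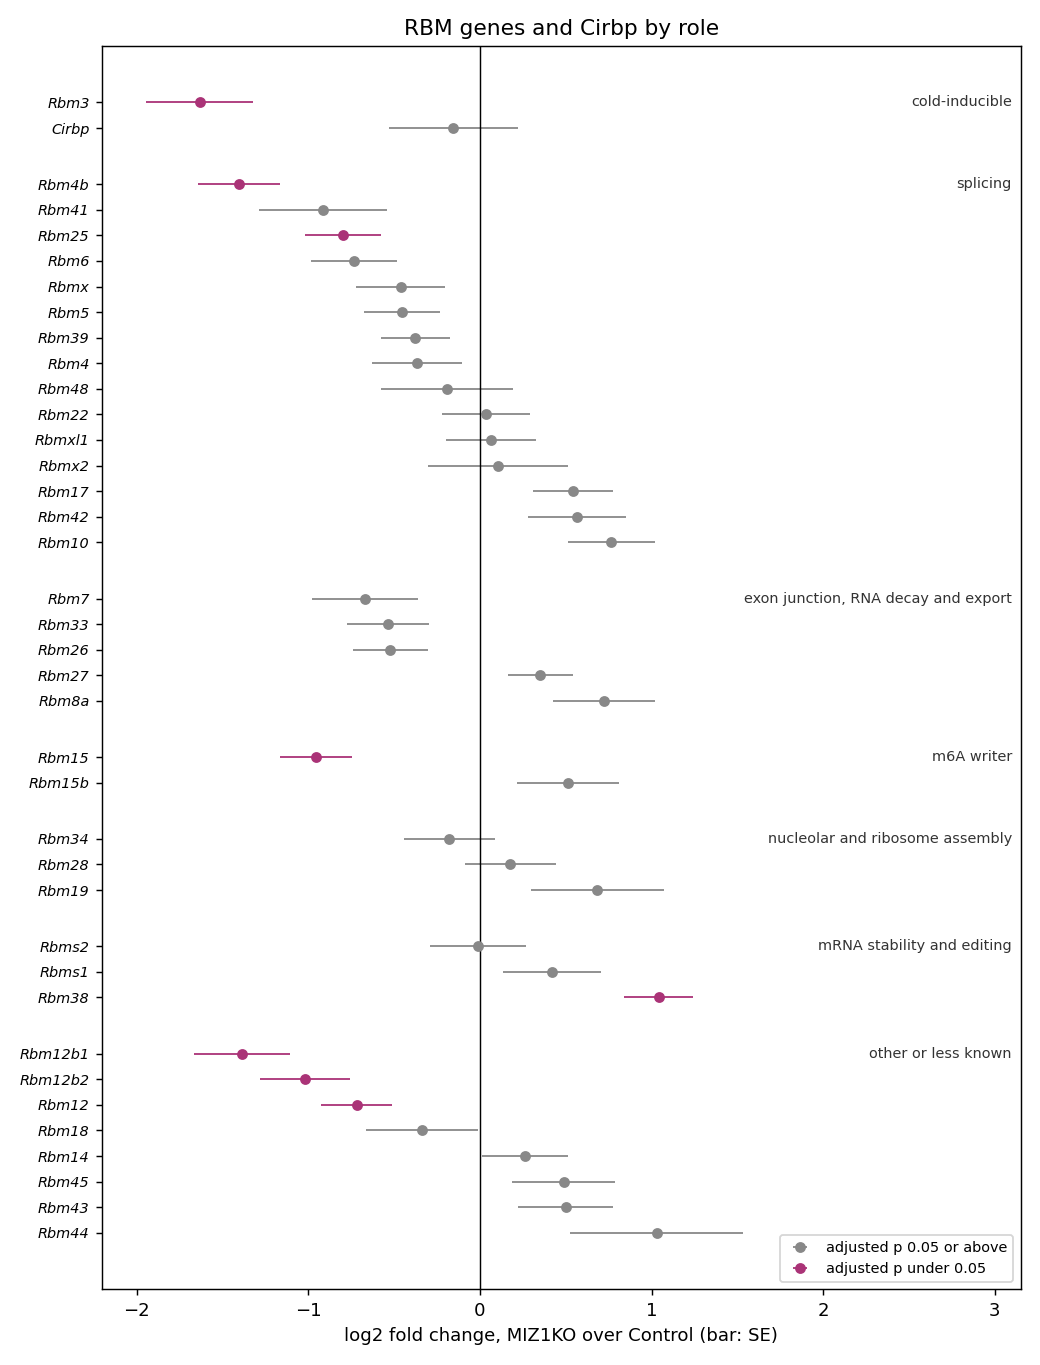
Log2 fold change of MIZ1KO over Control with its SE for the 38 tested members, in blocks by role. Purple points have an adjusted p under 0.05: 7 lie below 0, from -1.63 for Rbm3 to -0.72 for Rbm12, and Rbm38 lies at 1.04.

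Libraries of the groups did not overlap for 12 members, 9 lower and 3 higher in MIZ1KO. These are 31.6% of the tested members, where 17.8% of protein-coding genes did not overlap (7.93% lower and 9.89% higher). Besides the 8 called genes they were Rbm39 and Rbm41, both lower, and Rbm10 and Rbm27, both higher. The heat map of deviations shows the 9 lower and the 3 higher genes as blocks of opposite colour in MIZ1KO.

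**Figure D3:**
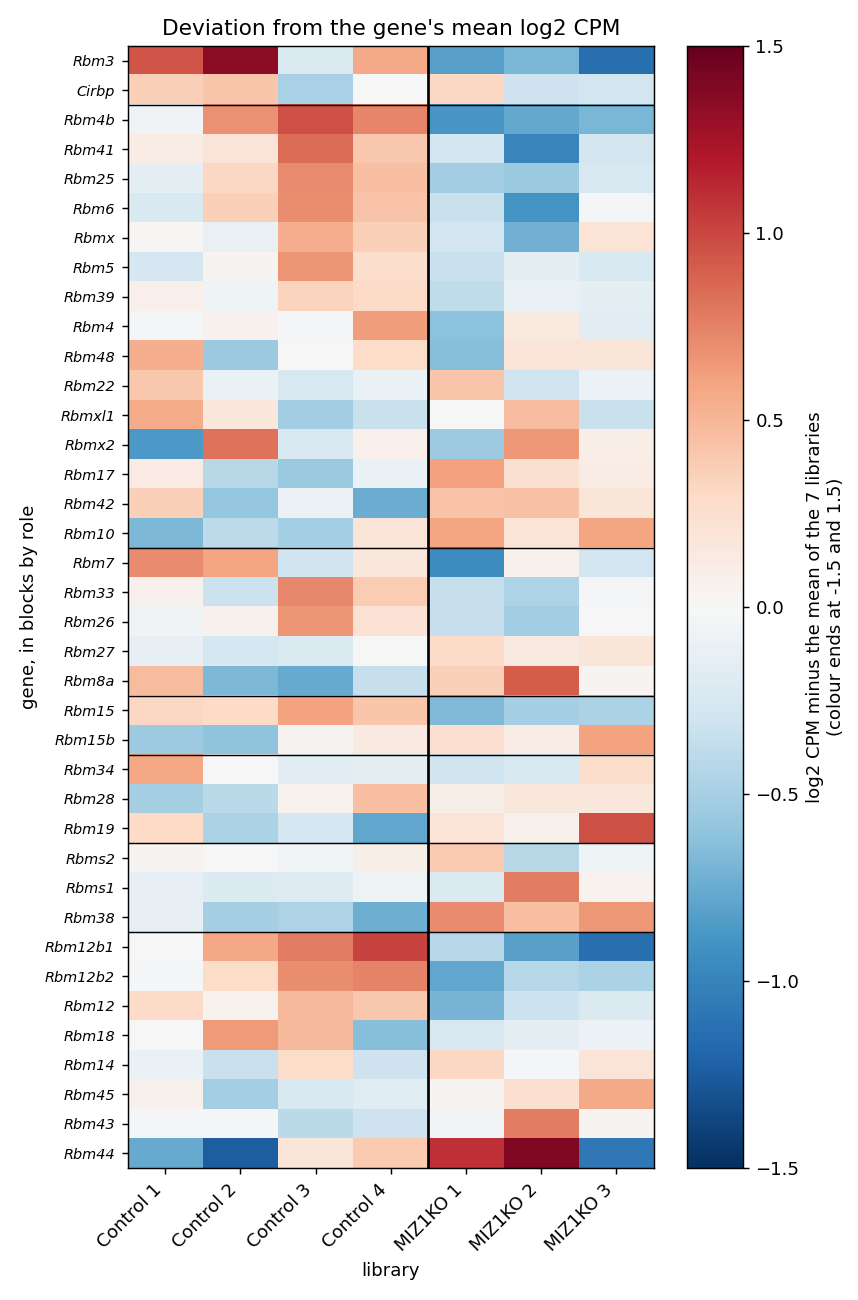
Deviation of log2 CPM from the mean of the 7 libraries for the 38 tested members (rows, in blocks by role) in 4 Control and 3 MIZ1KO libraries (columns). Red is above the gene's mean and blue below; Rbm4b, Rbm15 and Rbm12b1 are below their mean in all 3 MIZ1KO libraries, and Rbm38 is above it.

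Of the cold-inducible pair, Rbm3 fell and Cirbp did not pass the test. Rbm3 (ENSMUSG00000031167) lies on chromosome X from 8138975 to 8145880 in GRCm38, on the minus strand. It measured 258, 281 and 206 CPM in MIZ1KO replicates 1 to 3, and 871, 1146, 391 and 674 CPM in Control replicates 1 to 4. Every MIZ1KO library was below every Control library, and Control replicate 3 stood nearest to them. The group levels were 248 ± 38.3 CPM (SD, n = 3) and 770 ± 319 CPM (SD, n = 4), a fold of 3.1 down and a log2 fold change of -1.63 ± 0.31 (SE; adjusted p = 0.0115, edgeR). Without MIZ1KO replicate 1 the adjusted p was 0.0831, and the call held in the other 18 settings tried. Each library held between 1281 and 7367 Rbm3 reads. Of the 50-base words in its transcripts 8.38% also occur in other gene models, chiefly Rbm3-ps, so a part of its reads may have been divided between them.

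Cirbp (ENSMUSG00000045193), on chromosome 10 from 80165985 to 80172786, measured 9.35, 6.09 and 6.27 CPM in MIZ1KO and 9.71, 10.1, 5.38 and 7.52 CPM in Control. The groups overlapped over most of their range, and the log2 fold change was -0.15 ± 0.38 (adjusted p = 0.844, edgeR). Cirbp rested on 39 to 87 reads per library, and none of its 50-base words occur in other gene models. The log2 ratio of Rbm3 to Cirbp within a library was 5.12 ± 0.377 in MIZ1KO and 6.5 ± 0.262 in Control, with no overlap. The difference of -1.38 had an exact two-sided permutation p of 0.0286, the smallest that 35 splits allow. Adjusted over 5 ratios chosen after the values were seen, p was 0.0714, which misses the threshold.

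Rbm3 made up a large part of all reads on the members. It held 11.6% to 15.8% of them in MIZ1KO and 15.8% to 40.8% in Control. All 39 members together took 0.349% to 0.357% of the reads outside ribosomal RNA in MIZ1KO and 0.464% to 0.553% in Control. Without Rbm3 these ranges were 0.294% to 0.315% and 0.303% to 0.465%, which overlap.

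Heat shock genes are the counterpart of the cold-inducible genes in that many are induced by raised temperature. Of 15 listed, 11 were tested and 10 of these lay above 0, where 5154 of 9812 protein-coding genes did. Among them Dnaja1, Chordc1 and Dnajb1 measured 0.06 each. Hspe1 went the other way, at -0.64 ± 0.31 (adjusted p = 0.204, edgeR). Hsph1, an HSP110 chaperone, rose, and none fell. It measured 98.1 ± 19.6 CPM in MIZ1KO (n = 3) and 57.8 ± 5.73 CPM in Control (n = 4), a log2 fold change of 0.77 ± 0.20 (adjusted p = 0.0342, edgeR). Its call ended without MIZ1KO replicate 1 (0.182), Control replicate 2 (0.0685) and Control replicate 4 (0.0823), and in limma-voom (0.0506), which called 0 genes of the list where DESeq2 called 3. Summed over the list, levels ran from 3920 to 4361 CPM in MIZ1KO and from 2478 to 3516 CPM in Control. Most of this sum was Hspa8 and Hsp90ab1, at means of 1403 and 1222 CPM in MIZ1KO and 787 and 784 CPM in Control. Neither passed (adjusted p = 0.0511 and 0.119, edgeR). The list's median was 0.21, beside 0.03 over protein-coding genes.

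**Figure D4:**
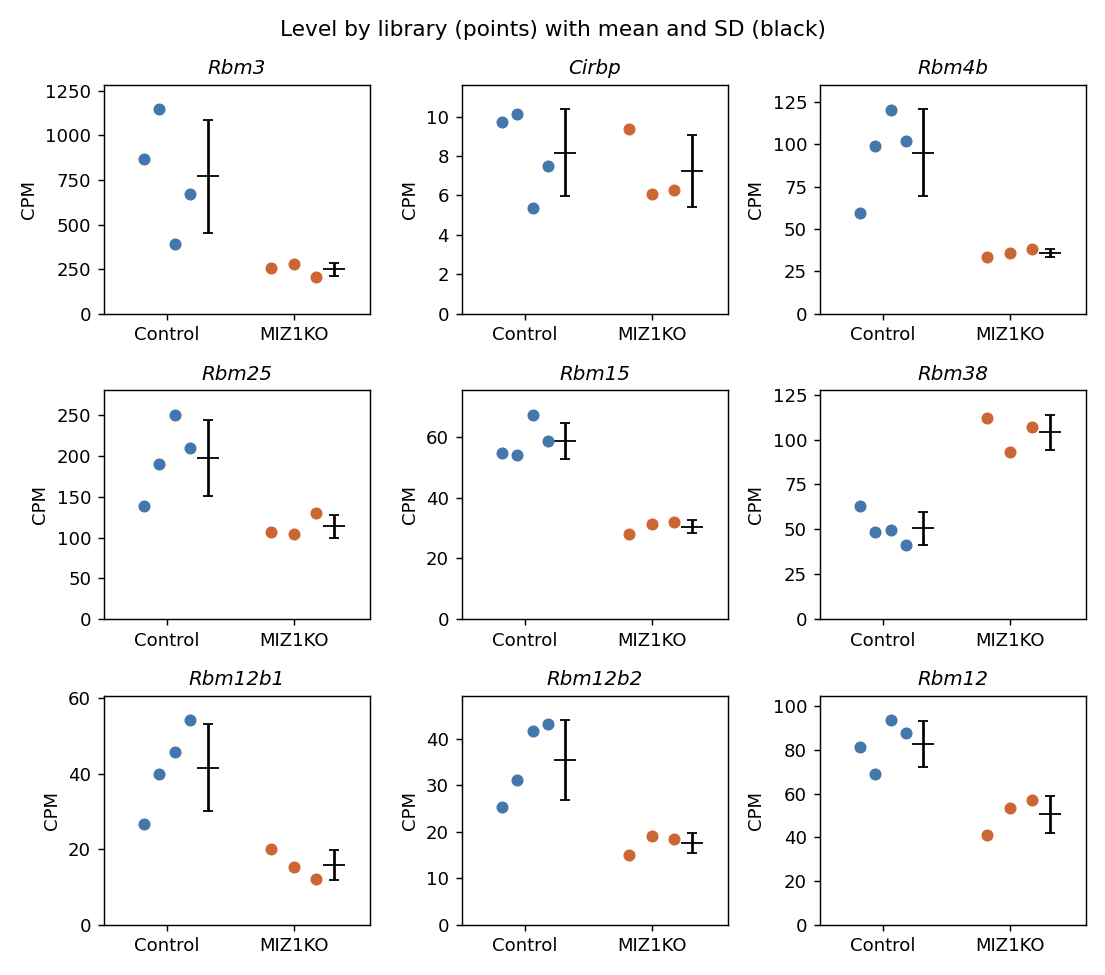
CPM of the 8 called members and Cirbp in each library, with the group mean and SD in black. The 3 MIZ1KO libraries lie below all 4 Control libraries in 7 genes and above them in Rbm38, while the Cirbp groups overlap.

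Among 15 splicing members Rbm4b and Rbm25 fell and none rose in edgeR. Rbm4b (ENSMUSG00000033760), a regulator of alternative splicing on chromosome 19 from 4756497 to 4767065, had the lowest adjusted p of all members. It measured 33.5, 36.1 and 38.3 CPM in MIZ1KO and 59.5, 99.1, 120 and 102 CPM in Control. The MIZ1KO libraries lay close together, and Control replicate 1 was the lowest of the Control libraries. The log2 fold change was -1.41 ± 0.24 (adjusted p = 0.00643, edgeR), and the call ended without MIZ1KO replicate 1 (0.0669). Rbm4, its near copy 17.2 kb away, measured 26 ± 6.62 CPM in MIZ1KO and 33.4 ± 7.95 CPM in Control, with a log2 fold change of -0.37 ± 0.26 (adjusted p = 0.408, edgeR).

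The log2 ratio of Rbm4b to Rbm4 was 0.50 ± 0.327 in MIZ1KO and 1.49 ± 0.467 in Control. It did not overlap between the groups (difference -0.99, two-sided exact permutation p = 0.0571, adjusted p = 0.0952 over 5 ratios). Rbm4 shares 57.5% of its 50-base words with Gm21992, a protein-coding model that overlaps it and Rbm14, while Rbm4b shares 4.42%. With the reads of Rbm4b, Rbm4 and Gm21992 summed, a setting chosen after the data were seen, the log2 fold change was -0.96 ± 0.21 (adjusted p = 0.0189, edgeR). The model Gm37206, which overlaps Rbm4b on the other strand, had no reads.

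Rbm25 (ENSMUSG00000010608), which regulates splice site choice and lies on chromosome 12 from 83631236 to 83683123, measured 107, 104 and 130 CPM in MIZ1KO and 139, 191, 251 and 210 CPM in Control. The groups came close, at 130 CPM in MIZ1KO replicate 3 and 139 CPM in Control replicate 1. Its log2 fold change was -0.80 ± 0.22 (adjusted p = 0.0421, edgeR). The call ended without any library other than Control replicate 1, with adjusted p-values from 0.0774 to 0.206, and in 7 of 12 other alternatives. Rbm39 measured 176 ± 17.6 CPM in MIZ1KO and 228 ± 28.6 CPM in Control, a log2 fold change of -0.38 ± 0.20 (adjusted p = 0.259, edgeR). The log2 ratio of Rbm25 to Rbm39 overlapped between the groups (exact permutation p = 0.114, adjusted p = 0.143).

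Rbm5, Rbm6 and Rbm10 encode related splicing factors known for their part in exon skipping. Rbm6 and Rbm5, neighbours 2.56 kb apart on chromosome 9, measured log2 fold changes of -0.73 ± 0.25 (adjusted p = 0.0857, edgeR) and -0.46 ± 0.22 (adjusted p = 0.213, edgeR). Rbm10, on chromosome X, measured 42.1, 32.2 and 42 CPM in MIZ1KO and 17.4, 21.3, 19.6 and 31.9 CPM in Control. All MIZ1KO libraries were above all Control libraries, by a narrow margin between MIZ1KO replicate 2 and Control replicate 4. Its log2 fold change was 0.77 ± 0.25 (adjusted p = 0.0768, edgeR), and DESeq2 called it higher (adjusted p = 0.0493). Of the 50-base words in its transcripts, 41% occur in other gene models.

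The other 8 splicing members did not pass. Rbm17, a factor of the second splicing step, and Rbm42 measured 0.54 ± 0.23 and 0.56 ± 0.28. Rbm41, a minor spliceosome protein, measured -0.91 ± 0.37 at 4.1 to 6.77 CPM in MIZ1KO and 8.79 to 14.6 CPM in Control. Rbm22, a core protein of the active spliceosome, and the paralogs Rbmx and Rbmxl1 measured 0.03 ± 0.26, -0.46 ± 0.26 and 0.06 ± 0.26. Rbmxl1 shares 79.6% of its 50-base words with other models, so its counts are uncertain. The median over the 15 was -0.37, beside 0.03 over protein-coding genes.

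Rbm15, the adaptor of the m6A writer, fell, whereas its paralog Rbm15b did not pass. Rbm15 (ENSMUSG00000048109), on chromosome 3 from 107325421 to 107333673, measured 27.9, 31.3 and 31.9 CPM in MIZ1KO and 54.8, 54.1, 67.2 and 58.6 CPM in Control. The groups were well apart and each was narrow, at 30.4 ± 2.11 and 58.7 ± 6.001 CPM. The log2 fold change was -0.95 ± 0.21 (adjusted p = 0.0179, edgeR), and no 50-base word of Rbm15 occurs in other gene models. Its call ended without MIZ1KO replicate 1 (0.131) and without Control replicate 4 (0.0624).

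Rbm15b (ENSMUSG00000074102), on chromosome 9 from 106880918 to 106887428, measured 17.4, 15.9 and 22.4 CPM in MIZ1KO and 10.1, 9.64, 15.1 and 16.1 CPM in Control. The groups overlapped in MIZ1KO replicate 2 and Control replicate 4, and the log2 fold change was 0.51 ± 0.30 (adjusted p = 0.298, edgeR). The log2 ratio of Rbm15 to Rbm15b was 0.723 ± 0.236 in MIZ1KO and 2.24 ± 0.29 in Control. The difference of -1.51 had an exact two-sided permutation p of 0.0286, the smallest possible, and an adjusted p of 0.0714 over 5 ratios. Of 14 other m6A writer, eraser and reader genes 0 rose and 0 fell, where 4.14% of protein-coding genes were called. Their median was 0.05. The nuclear reader Ythdc1 measured -0.61 ± 0.24 (adjusted p = 0.120, edgeR) and the eraser Alkbh5 0.38 ± 0.19 (adjusted p = 0.219, edgeR). At an unadjusted p under 0.05 there was 1 of the 14 genes in edgeR, where 21.2% of protein-coding genes were. DESeq2 and limma-voom called 0 of the 14.

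Rbm38 was the single member that rose in edgeR. The gene (ENSMUSG00000027510), on chromosome 2 from 173020498 to 173034734, measured 112, 93.2 and 107 CPM in MIZ1KO and 63, 48.5, 49.5 and 41.2 CPM in Control. No library of either group came near the other group. Its mean was 104 ± 9.69 CPM against 50.5 ± 9.07 CPM, a 2.06-fold rise and a log2 fold change of 1.04 ± 0.20 (adjusted p = 0.0127, edgeR). The call ended without MIZ1KO replicate 1 (0.0710). None of its 50-base words occur in other models, and the models that overlap it on the other strand had at most 1 read. Rbms1 and Rbms2, single-stranded nucleic acid binding paralogs, measured 0.42 ± 0.29 and -0.01 ± 0.28 and did not pass. The sign of Rbms2 changed with the scaling. In Rbms1, MIZ1KO replicate 2 measured 30 CPM and the other 6 libraries between 15.2 and 18.2 CPM.

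Of 8 members with other or less known roles, 3 fell: Rbm12 and the pair Rbm12b1 and Rbm12b2. Rbm12b1 (ENSMUSG00000046667) lies on chromosome 4 from 12140264 to 12146731, and Rbm12b2 (ENSMUSG00000052137), its close copy, from 12089439 to 12096243, with 44 kb between them. Rbm12b1 measured 20, 15.3 and 12.2 CPM in MIZ1KO and 26.8, 40, 45.7 and 54.1 CPM in Control, a log2 fold change of -1.38 ± 0.28 (adjusted p = 0.0144, edgeR). Rbm12b2 measured 15, 19.1 and 18.5 CPM in MIZ1KO and 25.3, 31.1, 41.7 and 43.2 CPM in Control, a log2 fold change of -1.02 ± 0.26 (adjusted p = 0.0324, edgeR). In both genes Control replicate 1 lay nearest to MIZ1KO.

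The copies share 59.7% and 55.1% of their 50-base words, so the division of reads between them is uncertain. Summed, they measured 33.4 ± 2.32 CPM in MIZ1KO and 77 ± 19.8 CPM in Control, a log2 fold change of -1.20 ± 0.24 (adjusted p = 0.0130, edgeR). Their ratio overlapped between the groups (exact permutation p = 0.257, adjusted p = 0.257). The call of Rbm12b1 ended without MIZ1KO replicate 1 (0.0603) and without Control replicate 4 (0.0573). That of Rbm12b2 ended without any library other than Control replicate 1, with adjusted p-values from 0.0619 to 0.179, and in 3 of 12 other alternatives.

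Rbm12 (ENSMUSG00000089824), on chromosome 2 from 156091958 to 156111978, measured 41, 53.4 and 57.1 CPM in MIZ1KO and 81.3, 68.8, 93.4 and 87.7 CPM in Control, a log2 fold change of -0.72 ± 0.21 (adjusted p = 0.0488, edgeR). Rbm12 shares exons with Cpne1 and with Gm28036, a protein-coding model that spans both. Gm28036 held 32.2, 137 and 60 reads in MIZ1KO replicates 1 to 3 and 0, 2.86, 5.39 and 4.04 reads in Control, and it rose (log2 fold change 4.50 ± 0.69, adjusted p = 0.00187, edgeR). With the reads of Gm28036 added to Rbm12, the log2 fold change was -0.49 ± 0.21 (adjusted p = 0.165, edgeR), and with those of Cpne1 as well it was -0.50 ± 0.20 (adjusted p = 0.129, edgeR). Both sums were chosen after the data were seen, and both ended the call while the libraries of the groups still did not overlap. The call on Rbm12 alone also ended without any library other than Control replicate 1, with adjusted p-values from 0.0723 to 0.263, and in 11 of 12 other alternatives.

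Of the members with other or less known roles, Rbm14, Rbm18, Rbm43, Rbm44 and Rbm45 did not pass. Rbm44, a germ cell gene, measured 9.46, 11.6 and 2.09 CPM in MIZ1KO and 1.87 to 5.81 CPM in Control. MIZ1KO replicate 3 thus lay among the Control libraries, and the log2 fold change of 1.03 ± 0.51 was the furthest from 0 of all members that were not called (adjusted p = 0.216, edgeR). Rbm14, a nuclear coactivator of paraspeckles, measured 0.26 ± 0.25.

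Of 5 members that act in the exon junction complex, RNA decay and export, 0 rose and 0 fell in edgeR, DESeq2 or limma-voom. In edgeR 4.14% of protein-coding genes were called. At an unadjusted p under 0.05 in edgeR were 4 of the 5, where 21.2% of protein-coding genes were. Rbm8a, the exon junction subunit Y14, measured 36.5, 53.4 and 29.3 CPM in MIZ1KO and 39.6, 17.9, 16.9 and 22.5 CPM in Control, with a log2 fold change of 0.72 ± 0.30 (adjusted p = 0.144, edgeR). Control replicate 1 lay within the MIZ1KO range. Rbm26 and Rbm33, which act in nuclear RNA surveillance and export, measured -0.52 ± 0.22 and -0.54 ± 0.24 (adjusted p = 0.149 and 0.176, edgeR). Rbm27, the paralog of Rbm26, measured 78 to 86.9 CPM in MIZ1KO and 59.1 to 70.5 CPM in Control without overlap, at 0.35 ± 0.19 (adjusted p = 0.255, edgeR). Rbm7, the RNA-binding subunit of the nuclear exosome targeting complex, measured -0.67 ± 0.31 (adjusted p = 0.189, edgeR).

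None of their listed partners passed in edgeR, DESeq2 or limma-voom. In edgeR 4.14% of protein-coding genes were called, so 0 calls do not set such short lists apart. At an unadjusted p under 0.05 were 21.2% of protein-coding genes. Of 9 other exon junction genes 0 were called, with a median of 0.29 and 3 at an unadjusted p under 0.05: Pnn, Rnps1 and Eif4a3, where Pnn measured -0.55 ± 0.22 and Rnps1 0.55 ± 0.23. Of 19 tested genes of the nuclear exosome and its adaptor complexes 0 were called, with a median of 0.25 and 3 at an unadjusted p under 0.05. Zfc3h1, the scaffold of an exosome adaptor, measured -0.59 ± 0.23, and Pabpn1, the nuclear polyA-binding protein, 0.74 ± 0.32.

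Of 3 nucleolar members that act in ribosome assembly 0 were called and 0 had an unadjusted p under 0.05. These shares were 4.14% and 21.2% over protein-coding genes in edgeR. Rbm19 measured 0.68 ± 0.39 (adjusted p = 0.289, edgeR), Rbm28 0.18 ± 0.27 and Rbm34 -0.18 ± 0.26. In all 3 the libraries of the groups overlapped, and DESeq2 and limma-voom called 0 of them.

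Splicing partners gave a single call. Zrsr2, which recognises the 3′ splice site of minor introns, fell from 26.5 ± 5.80 CPM in Control to 9.93 ± 1.91 CPM in MIZ1KO, a log2 fold change of -1.43 ± 0.29 (adjusted p = 0.0145, edgeR). It was the 1 gene called of 11 minor spliceosome genes, whose median was -0.18, where 4.14% of protein-coding genes were called. Its call ended without MIZ1KO replicate 1 (0.115) and without Control replicate 4 (0.0586). The member Rbm48, a minor spliceosome protein, measured -0.19 ± 0.39. Of 15 genes of the Prp19 complex and its associates, with which Rbm22 and Rbmx2 work, 0 were called in edgeR or limma-voom. DESeq2 called 1 of them. In edgeR 5 of the 15 had an unadjusted p under 0.05, where 21.2% of protein-coding genes did. Prpf19 measured 0.77 ± 0.23 (adjusted p = 0.0545, edgeR) and Cdc5l 0.51 ± 0.20 (adjusted p = 0.123, edgeR), both with no overlap between the groups, and the list's median was 0.30.

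The share of reads in TEC models was lower in every MIZ1KO library than in every Control library, as given above, and was lowest in Control replicate 1 among the Control libraries. With its log2 value as a covariate in the fit, Rbm3 alone of the 38 members passed, at a log2 fold change of -2.60 (adjusted p = 0.00474, edgeR). The changes of Rbm4b and Rbm12b2 shrank to -0.52 and -0.28, that of Rbm25 to -0.0015, and those of Rbm15 and Rbm38 to -0.67 and 0.74. Since the share does not overlap between the groups, it cannot be told apart from genotype in these libraries. The plot of log2 fold changes over the settings shows this fit beside the others.

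**Figure D5:**
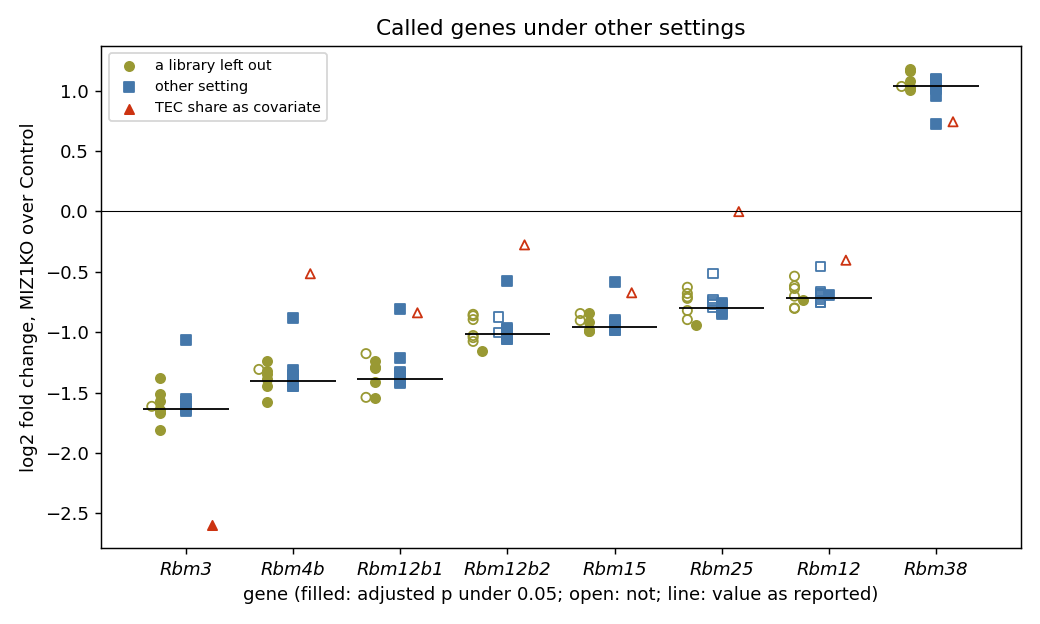
Log2 fold change of MIZ1KO over Control for the 8 called members in the 19 other settings, with the reported value as a line. Filled symbols have an adjusted p under 0.05: with the TEC share as a covariate (red triangles) only Rbm3 stays filled, at -2.60, and all 8 genes stay on their side of 0 in every setting.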

How the data were processed

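Gene expression was measured by polyA RNA sequencing in 7 libraries, 3 labelled MIZ1KO and 4 labelled Control, grouped by the genotype label. The authors deposited expected counts per gene, which need not be whole (6.61% are not), without normalization. They also deposited log2 values across the libraries, made by a function not given in the sources used here, which served as an alternative. The submitters' processing notes list GRCm38, STAR 2.5.2, RSEM 1.3.0, DESeq2 1.18.1 and R 3.4.3 with no role or order. Annotation release, strand setting and the treatment of shared reads: not given in the sources used here.

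Counts were rounded, filtered with filterByExpr, scaled with edgeR's TMM factors and tested with edgeR 4.0.16 in R 4.3.3 (quasi-likelihood F-test, current rather than legacy fit, robust, two-sided), with Benjamini-Hochberg adjustment over 11618 genes and a threshold of 0.05. CPM uses TMM-scaled totals that include ribosomal RNA models. SEs derive from the fold change and the F statistic. Symbols and positions came from GENCODE vM21, which matched 48435 identifiers and not 360. Words of 50 bases were compared between GENCODE transcripts on the sense strand. Library pairs of a group differed by at least 15.7 in chi-square per degree of freedom, so none was a duplicate.

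Members and lists were chosen with earlier results of these data known. Named were Rbm3 and Cirbp, members past the threshold, up to 3 members per role with the smallest p and, per partner list, called genes or the 2 with the smallest p; other names were chosen after their values were seen. The fit was tested on simulated data. Alternatives were RLE scaling, library totals, other filters, DESeq2 1.42.0, limma 3.58.1 (voom, and the deposited log2 values), the legacy fit, other gene sets, a replicate block, the TEC share and leaving out each library. Some B cell markers are not reported here.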

Additional observations from a re-analysis of the deposited data

Results flagged for a closer look

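Of 39 members examined in the 4 Control libraries, Rbm4 alone had a library set apart from the others: Control replicate 4 measured 45.2 CPM, and the gap to the next library was 0.883 of the group's range, above Dixon's critical value for 4 samples. Chance sets apart about 1 in 20 such groups.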

How the results depend on the processing

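The direction of all 8 called members held in all 19 settings tried. Against 8 members called (1 higher, 7 lower), limma-voom called 5 (4 lower), the TEC share as a covariate 1 (0 higher, 1 lower), DESeq2 9 (2 higher), and leaving out a library between 0 and 10 (0 to 2 higher, 0 to 8 lower). Against 692 genes called in all, DESeq2 called 1120, limma-voom 342, protein-coding genes only 315, the TEC share as a covariate 297, and leaving out a library between 39 and 1350. Against 406 protein-coding genes, DESeq2 called 741, limma-voom 208, the replicate block 256, the TEC share as a covariate 268, and leaving out a library between 19 and 913. Over 19 named members, 294 of 361 values kept direction and side of the threshold, 50 lost the call, 3 gained it and 14 changed sign, none of these in a called member; the cause was not tested. With the TEC share as a covariate Rbm26 measured 0.18, Rbm33 0.16 and Rbm8a -0.39. Leaving out single libraries gave between -0.346 and 0.0404 for Cirbp, between -0.357 and 0.0231 for Rbm34, and between -0.216 and 0.24 for Rbms2. Rbms2 also turned to 0.0133 with RLE scaling, 0.0306 without a filter, 0.0449 with at least 10 counts in 3 libraries, 0.0153 in DESeq2 and 0.0322 without ribosomal RNA genes. On the deposited log2 values Rbm3 measured -1.06. The replicate numbers were not taken to pair the libraries: deviations from the group means of libraries with the same number correlated at 0.02, 0.07 and 0.16. MIZ1KO replicates 1 and 3 correlated best with their own number, and MIZ1KO replicate 2 with Control replicate 1 (0.13). With the replicate block 6 members were called (2 higher, 4 lower), Rbm10 among them (adjusted p = 0.0441) and Rbm12, Rbm12b2 and Rbm25 not, and 476 genes in all. Depth limits, among others, Rbm47, Rbm44 and Cirbp, at 2 to 21, 12 to 116 and 39 to 87 reads per library.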
